A study of Saccharomyces cerevisiae with 4 samples.

Results

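The transcripts described here are those of 8 budding yeast genes for the use of maltose, isomaltose and sucrose: *MAL11* (YGR289C), *MAL12* (YGR292W) and *MAL13* (YGR288W) of the *MAL1* locus, *MAL31* (YBR298C), *MAL32* (YBR299W) and *MAL33* (YBR297W) of the *MAL3* locus, the isomaltase gene *IMA1* (YGR287C) and the invertase gene *SUC2* (YIL162W). They were found by their systematic names on the array, where each of the 8 had 1 probe among the 6256 gene probes. In the reference annotation (R64) the *MAL1* locus and *IMA1* lie side by side on chromosome VII, the *MAL3* locus on chromosome II and *SUC2* on chromosome IX. Wild-type cells of strain Y52 were compared with the same strain lacking *ESL1* and *ESL2* (*esl1Δ::KAN* and *esl2Δ::NAT*), so that the mutant also carried both drug resistance cassettes. Both strains were MATa, with *RAD5*, the nutrient markers *ade2-1*, *trp1-1*, *ura3-1* and *leu2-3, 122*, and also *can1-100*. Both were grown to log phase at 30° in rich medium (YPD) with 2% glucose, to which no maltose, isomaltose or sucrose is listed as added. RNA of both strains was hybridized together in different dyes, in 3 biological replicates on 3 arrays, with 1 further array that repeated replicate 3 with the dyes exchanged. The number of arrays limits the precision, and the labels do not say whether the replicates were separate clones.

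A *MAL* locus of budding yeast holds a gene for a maltose transporter, one for maltase, the enzyme that splits maltose into glucose, and one for an activator protein that switches on the other two when maltose is present. *SUC2* encodes invertase, which splits sucrose into glucose and fructose, and *IMA1* encodes an isomaltase related to the maltases. Glucose represses *SUC2* and the *MAL* genes through the repressor Mig1 and its co-repressor Tup1-Cyc8, and the Snf1 kinase lifts this repression when glucose runs low. Esl1 and Esl2 are a pair of related proteins of budding yeast with a predicted ribonuclease domain.

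The probes of the deleted genes had a mean log2 ratio of mutant over wild-type of −4.50 for *ESL1* and −3.76 for *ESL2*. Between 92.4% and 98.0% of the gene spots of an array were well above background in a channel. Across probes, which are not independent replicates, the log2 ratios of replicates 1 and 2 correlated with r = 0.681, whereas replicate 3 gave r = 0.102 with replicate 1 and r = 0.214 with replicate 2. Thus replicate 3 stood apart, and the values of the 8 genes without it are given. Only replicate 3 had an array with the dyes exchanged, and replicates 1 and 2 both had the mutant in Cy5. A dye effect can thus be part of their correlation. In all values given without replicate 3, strain and dye cannot be told apart. Of 6 a-specific genes that mark MATa cells, all 6 were well above background on all 4 arrays in both strains, and of 4 alpha-specific genes 2 were. The summed normalized intensity of the alpha-specific genes was 1176 to 1432 in the wild-type and 1086 to 1273 in the mutant. That of the a-specific genes was 63819 to 90120 in the wild-type and 51471 to 72415 in the mutant. Of these 6 genes, 5 had a lower signal in the mutant in all 3 replicates, against 18.5% of all probes. The part of this in the results below was not tested, and in such bulk samples fewer expressing cells and less RNA per cell cannot be told apart.

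The maltase genes *MAL12* and *MAL32* and the activator gene *MAL33* had signals about 2-fold above the wild-type in the *esl1Δ esl2Δ* mutant, *SUC2* had a 1.63-fold higher signal, and the other four genes had mean log2 ratios between −0.19 and 0.49. A log2 ratio of 1 is a 2-fold higher signal in the mutant. Of the 8 genes, 2 had a mean log2 ratio of at least 1, against 0.4% of all 6254 probes tested, and none was lower by that much. At a 1.5-fold limit there were 4, against 2.45% of all probes. Signals were higher in the mutant in each of the 3 replicates for 5 genes (*MAL12*, *MAL31*, *MAL32*, *MAL33* and *SUC2*), against 18.7% of all probes. None of the 8 had an adjusted p below 0.05 in the limma test with Benjamini-Hochberg adjustment, which called 0.112% of all probes in either direction and 0.032% as higher. The same 5 genes had an unadjusted p below 0.05, against 7.9% of all probes for higher signals. Without replicate 3 these 5 also had an adjusted p below 0.05 by limma, where 4.67% of all probes were called as higher. The arrays left in that fit all had the mutant in Cy5, so strain and dye cannot be told apart there. None of the 8 had an adjusted p below 0.05 without replicate 1 or without replicate 2, where 0% of all probes were called as higher. Over the 8 genes the mean log2 ratios had a median of 0.60, against −0.0049 over all probes. *MAL12*, *MAL32* and *MAL33* had been named in the study from these same arrays, so their size is not independent of their choice. The median of the 5 genes that had not been named was 0.29.

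**Figure D1:**
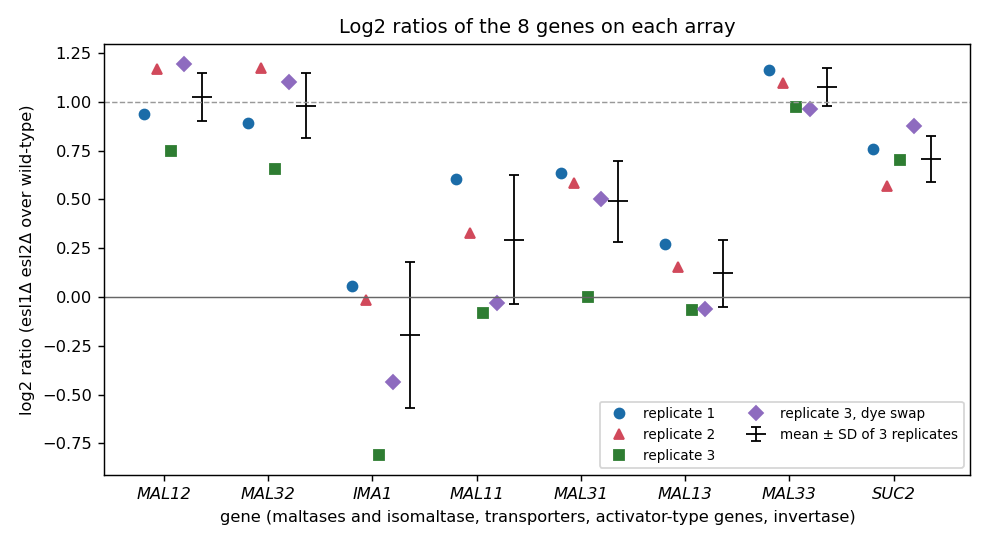
Log2 ratio of mutant over wild-type for each of the 8 genes on each of the 4 arrays, with the mean and SD of the 3 replicates (the 2 arrays of replicate 3 averaged) in black. The dashed line marks 2-fold. *MAL12*, *MAL32*, *MAL33*, *SUC2* and *MAL31* lie above 0 on every array, *MAL31* by only 0.0021 on 1 of them, and *IMA1* spreads most among the 8, with an SD of 0.37.

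*MAL12* and *MAL32* encode the maltases of both loci. The normalized intensity of *MAL12* was 451, 361 and 887 in the wild-type and 865, 811 and 1739 in the mutant in replicates 1 to 3. In every replicate the mutant had about 2 times the wild-type signal, but the strains overlap across replicates, because the wild-type of replicate 3 exceeded the mutant of replicates 1 and 2. The mean log2 ratio of *MAL12* was 1.03 ± 0.12 (n = 3, SD; limma adjusted p = 0.0964). For *MAL32* the intensity was 279, 332 and 838 in the wild-type and 518, 748 and 1540.0 in the mutant, with the same overlap. Its mean log2 ratio was 0.98 ± 0.17 (n = 3, SD; limma adjusted p = 0.117), just short of 2-fold. With replicates 1, 2 and 3 left out in turn, the adjusted p from limma was 0.359, 0.777 and 0.0151 for *MAL12* and 0.405, 0.777 and 0.0179 for *MAL32*. The genes are close paralogs, and whether each probe also binds the transcript of its paralog was not tested.

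*MAL33* and *MAL13* encode proteins of the *MAL* activator type, zinc cluster transcription factors. The intensity of *MAL33* was 1443, 1263 and 1317 in the wild-type and 3232, 2697.5 and 2579 in the mutant. All 3 mutant values lay above all 3 wild-type values, which held for 1 of the 8 genes and for 4.11% of all probes. The mean log2 ratio of *MAL33* was 1.08 ± 0.10 (n = 3, SD; limma adjusted p = 0.081), the largest among the 8 genes and with the smallest spread. It ranked 18 of 6254 probes by mean log2 ratio, *MAL12* 24 and *MAL32* 26. With replicates 1, 2 and 3 left out in turn its adjusted p from limma was 0.37, 0.777 and 0.0106, and with median centring of the arrays in place of loess it was 0.0353, where 0.064% of all probes were called as higher. *MAL13* had an intensity of 443, 270.4 and 618 in the wild-type and 536, 300.7 and 591 in the mutant. These values differed more between replicates than between strains, and the mean log2 ratio was 0.12 ± 0.17 (n = 3, SD; limma adjusted p = 0.693). Without replicate 3 it was 0.21 with an adjusted p of 0.226.

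*MAL11* and *MAL31* encode the transporters. The reference annotation gives *AGT1* as another name of *MAL11*, a transporter of a wider range of alpha-glucosides than maltose. The intensity of *MAL31* was 2579.9, 1714 and 2223 in the wild-type and 4007, 2567 and 2646 in the mutant. The mutant was higher within each replicate, although its lowest value was below the highest of the wild-type. The mean log2 ratio of *MAL31* was 0.49 ± 0.21 (n = 3, SD; limma adjusted p = 0.234), and without replicate 3 it was 0.61 with an adjusted p of 0.0284, against 0.714 without replicate 1 and 0.997 without replicate 2. The intensity of *MAL11* was 777, 716 and 1031 in the wild-type and 1182, 900.4 and 993 in the mutant. The mutant was thus higher in replicates 1 and 2 and slightly lower in replicate 3, with log2 ratios of 0.61, 0.33 and −0.055. Their mean was 0.29 ± 0.33 (n = 3, SD; limma adjusted p = 0.482), and without replicate 3 it was 0.47 with an adjusted p of 0.0602.

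*SUC2* had an intensity of 4362, 4026 and 6134 in the wild-type and 7379.7, 5980.2 and 10606 in the mutant. Its log2 ratios of 0.76, 0.57 and 0.79 were alike in size, and only the wild-type of replicate 3 was above a mutant value. The mean log2 ratio was 0.71 ± 0.12 (n = 3, SD; limma adjusted p = 0.14), and without replicate 3 it was 0.66 with an adjusted p of 0.0283, against 0.531 without replicate 1 and 0.819 without replicate 2. *IMA1* was the only gene of the 8 with a negative mean. Its intensity was 483, 540.0 and 1281 in the wild-type and 502, 533 and 831 in the mutant. The strains were thus close to each other in replicates 1 and 2, and the mutant was lower in replicate 3, so that the log2 ratios were 0.057, −0.018 and −0.62. Their mean was −0.19 ± 0.37 (n = 3, SD; limma adjusted p = 0.657). Without replicate 3 the mean of *IMA1* was 0.020.

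**Figure D2:**
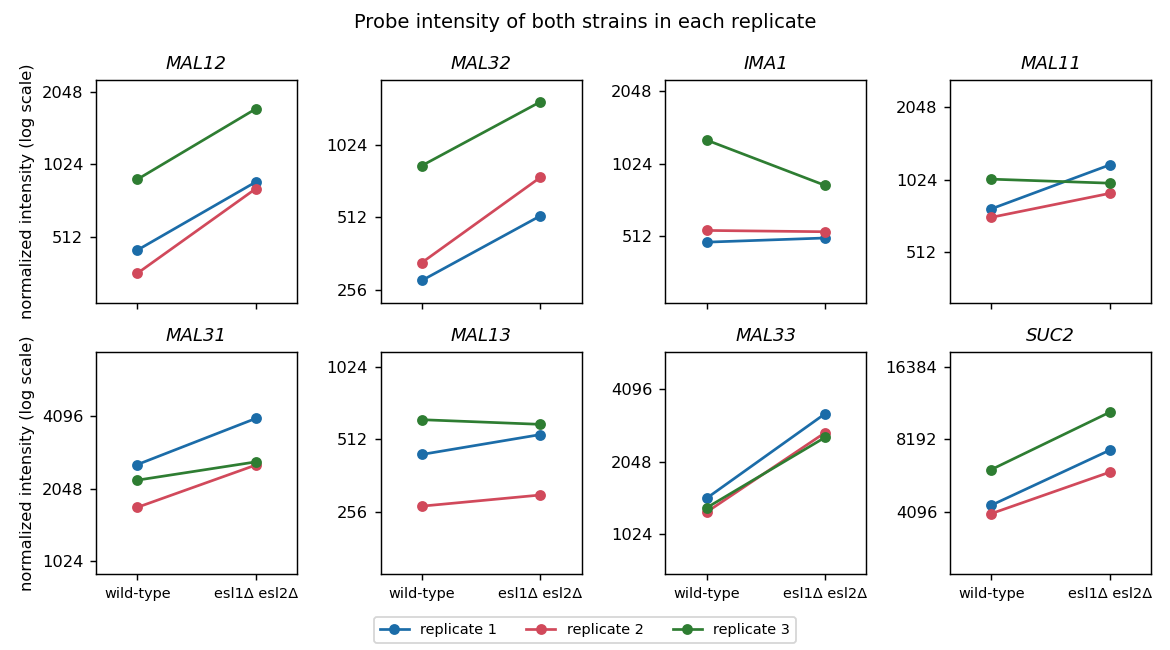
Normalized probe intensity (arbitrary units, log scale) in the wild-type and *esl1Δ esl2Δ* cells, with a line for each replicate. The lines of *MAL12*, *MAL32*, *MAL33*, *SUC2* and *MAL31* go up in all 3 replicates, those of *IMA1*, *MAL11* and *MAL13* go down in replicate 3, and intensities are not to be compared between genes because probes differ in brightness.

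The *MAL1* and *MAL3* loci were compared gene by gene, by subtracting the log2 ratio of the *MAL3* gene from that of its *MAL1* counterpart within each replicate. The maltases had nearly the same ratios, the transporters were somewhat apart, and the activator-type genes were about 2-fold apart. For *MAL13* minus *MAL33* the 3 replicates gave differences of −0.89, −0.94 and −1.03 (mean −0.95 ± 0.07, SD, n = 3), and the separate arrays of replicate 3 gave −1.04 and −1.02. For *MAL11* minus *MAL31* they gave −0.030, −0.25 and −0.31 (mean −0.20 ± 0.15, SD, n = 3). For *MAL12* minus *MAL32* they gave 0.049, −0.0076 and 0.093 (mean 0.045 ± 0.050, SD, n = 3). The mean over the 3 genes of a locus was 0.48 for *MAL1* and 0.85 for *MAL3*, a difference of −0.37 ± 0.07 (n = 3, SD). In a two-sided exact sign-flip permutation test the p was 0.25 for the activator-type genes, the transporters and the locus means and 0.5 for the maltases, and 0.333 and 0.5 after Benjamini-Hochberg adjustment over the 4 comparisons. With 3 replicates this test cannot give a p under 0.25. Of the *MAL3* genes 3 were higher in the mutant in all replicates and of the *MAL1* genes 1, *MAL12*.

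**Figure D3:**
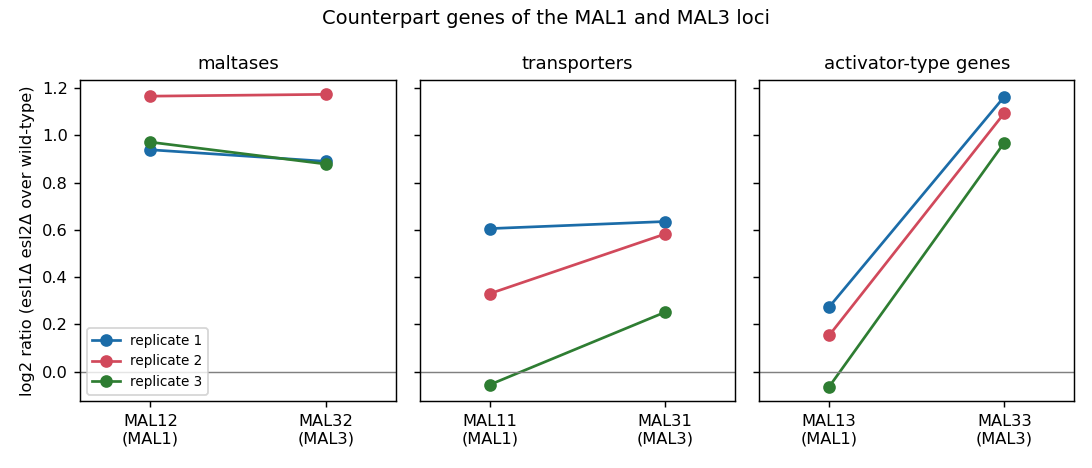
Log2 ratio of mutant over wild-type for the *MAL1* gene and its *MAL3* counterpart, with a line for each replicate. The lines are almost flat for the maltases and climb by 0.89 to 1.03 from *MAL13* to *MAL33*.

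Of the genes that flank these loci, 1 had a mean ratio past 2-fold. *PHO89* (YBR296C), a phosphate transporter gene next to *MAL33*, had log2 ratios of 0.40, 1.53 and 1.79. Their mean was 1.24 ± 0.74 (n = 3, SD; limma adjusted p = 0.211). The intensity of *PHO89* was 30653, 1186 and 784 in the wild-type and 40373, 3418 and 2707 in the mutant. Both strains were thus far brighter in replicate 1, where its ratio was smallest. *MAL33* had log2 ratios of 1.16, 1.09 and 0.97, and whether the genes change together was not tested. The other four neighbors of *MAL3*, *PCA1*, YBR300C, *PAU24* and *COS2*, had means between −0.14 and 0.10. Beside *MAL1* and *IMA1*, *BIO2*, *PAU12* and *COS6* had means between −0.17 and 0.20, and the probes of YGR290W, YGR291C and YGR293C were not well above background in the wild-type on any array, so no fold change is given for these. Of the 15 neighbors of the 3 loci, 1 was at least 2-fold higher, against 0.4% of all probes, and none was at least 2-fold lower. That 1 was *PHO89*, which had been named in the study from these same arrays, so the count is not independent of that result. Limma called none at an adjusted p of 0.05, against 0.112% of all probes. By limma 1 had an unadjusted p below 0.05 with a higher signal, against 7.9% of all probes. Beside *SUC2*, the widest spread was that of *POT1*, for a peroxisomal thiolase, with −0.16, −1.53 and 0.13.

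**Figure D4:**
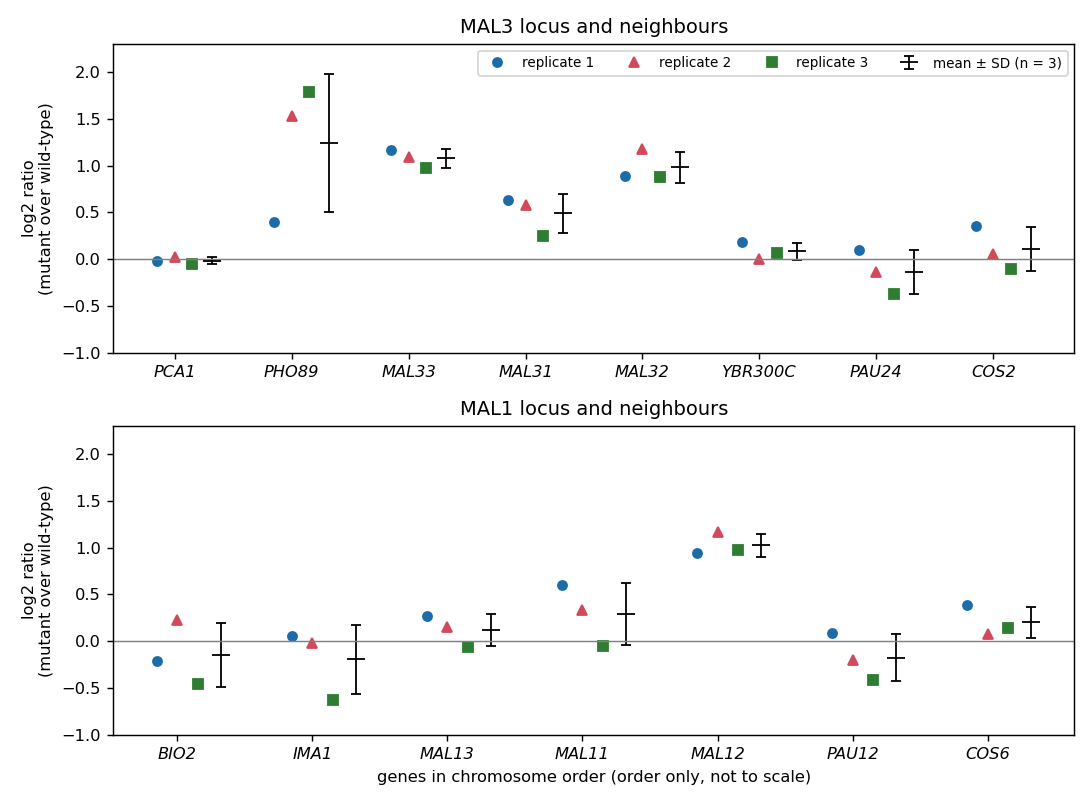
Log2 ratio of mutant over wild-type in each replicate, with the mean and SD in black, for the genes of *MAL3* and *MAL1* and their neighbors in chromosome order. The means of *MAL33*, *MAL31* and *MAL32* (1.08, 0.49 and 0.98) stand above those of the genes from YBR300C to *COS2*, and *MAL12* stands above *MAL13* and *IMA1*.

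Other genes of the pathway were taken from lists written from general knowledge, but with earlier results of these arrays known. The 8 relatives of the *MAL* genes were the isomaltase genes *IMA2* to *IMA5*, the maltose permease genes *MPH2* and *MPH3*, and the activator-like YPR196W and *ZNF1*. Their median log2 ratio was 0.071. Limma called none of them at an adjusted p of 0.05, against 0.112% of all probes. By limma 1 had an unadjusted p below 0.05 with a higher signal, against 7.9% of all probes. That 1 was *ZNF1*, whose probe was well above background in the mutant on all 4 arrays and in the wild-type on none. For a bound, the wild-type was set on each array to the higher of its own signal and the lowest signal well above background. The mean *ZNF1* signal of the mutant was then 1.42-fold higher, a lower bound that was not tested. The adjusted p of 0.169 from limma belongs to the measured ratio. Of 15 genes for regulators known to act on *MAL* genes or *SUC2*, limma called none at an adjusted p of 0.05, while an unadjusted p below 0.05 was found for 1 with a higher and 2 with a lower signal, against 7.9% and 5.39% of all probes. Both of the latter, and no other regulator, were past 2-fold, where 25 of all 6254 probes were at least 2-fold lower. They were *MIG2*, at −1.36, −1.09 and −0.65 in the 3 replicates (mean −1.03 ± 0.36, SD, n = 3; limma adjusted p = 0.149), and *MIG3*, at −2.05, −2.17 and −0.58 (mean −1.60 ± 0.89, SD, n = 3; limma adjusted p = 0.196). Replicate 3 was the smallest in size for both. Both encode repressors related to Mig1. *MIG1* itself had a mean of −0.010 ± 0.22 (n = 3, SD), *TUP1* of 0.027, *CYC8* of −0.018 and *SNF1* of −0.016.

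For 17 other genes repressed by glucose the median log2 ratio was 0.24, with 0.041, 0.40 and 0.83 as the medians of replicates 1 to 3. The 8 sugar use genes had 0.70, 0.58 and 0.52, the opposite order, but this rests on averaging both arrays of replicate 3. On its dye swap array alone the medians were 0.69 for the 8 genes and 0.86 for the 17. Single genes also departed from the medians. *HXK1*, *HXT6* and *HXT7* fell from replicate 1 to 3, and *SUC2* was highest in replicate 3. The difference between the sets was not tested. Of the 17 genes 8 were higher in all 3 replicates and 5 were at least 2-fold higher, against 18.7% and 0.4% of all probes. By limma 7 had an unadjusted p below 0.05 with a higher signal, against 7.9% of all probes. None had an adjusted p below 0.05. The 5 past 2-fold were *HXK1*, *HXT4*, *HXT6*, *HXT7* and *JEN1*. Of these, all but *HXT4* were named in the text of the study from these same arrays. The counts and medians of the 17 genes are thus not independent of their choice. The SD over the replicates had a median of 0.17 for the 8 sugar use genes, 0.58 for the 17 genes and 0.20 for all probes. The SD ranged from 0.024 to 1.84 over the 17 genes and from 0.10 to 0.37 over the 8.

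The genes with log2 ratios most like those of *MAL12* over the 4 arrays were sought among 5779 probes well above background in both channels on all arrays, by Euclidean distance, with the 8 sugar use genes left out. Of the latter, *MAL32* at a distance of 0.14 and *MAL33* at 0.401 were closer to *MAL12* than any of these. The 5 nearest other genes were the hexose transporter gene *HXT4* (0.447), *CAT8*, for an activator of gluconeogenesis genes (0.514), the protein kinase gene *MRK1* (0.523), the mitochondrial ribosomal protein gene *RSM26* (0.528) and *STF2* (0.561). For *SUC2* they were *TUF1*, for a mitochondrial translation elongation factor (0.212), *RTC6* (0.249), *CAT8* (0.256), *RRT6* (0.286) and *CYT2* (0.317). *CAT8* was in both lists, with a mean log2 ratio of 0.84 ± 0.08 (n = 3, SD; limma adjusted p = 0.117).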

How the data were processed

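Total RNA (500 ng) was labeled by a two-color Agilent protocol, and the authors deposited, from Feature Extraction 10.1.1.1, spot and local background intensities (medians, not normalized) and the software's log10 ratios of red over green. The deposited series table holds the same log10 ratios for each spot, with the sign of the dye swap as scanned.

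Log2 ratios were obtained from these intensities by normexp background correction (offset 50) and loess within each array, with limma 3.58.1 and the reader of data.table (version 1.17.8) under R 4.3.3. Outlier spots (291 to 486 of 15208 gene spots per array) and 536 control spots were left out, and the 2 or 3 spots of each of the 8 probes were averaged. The SD between spots of these probes had a median of 0.039. All ratios were set as mutant over wild-type, and the swap was averaged with its partner as replicate 3. Ratios of 6254 probes were tested against 0 by the moderated two-sided test of limma (lmFit, eBayes) with Benjamini-Hochberg adjustment at a threshold of 0.05, which was also tested on simulated data. A signal per strain was obtained after Aquantile scaling between arrays. A probe was taken as well above background where at least 50% of its spots were. All 8 probes were so on all 4 arrays in both strains.

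Symbols were taken from the reference table (assembly R64), to which 5756 probes were matched. The array is annotated on an older build, so no coordinates are given. The genes named are the 8, the deleted genes, listed relatives, regulators, neighbors and other glucose-repressed genes, and the 5 nearest by ratio to *MAL12* and *SUC2*. Members, lists and tests were chosen with earlier results of these arrays known. Alternatives were other background corrections, normalizations, spot summaries and filters, the deposited log ratios, the dye swap left out, used alone or fitted with a dye term, each replicate left out, unpaired channels and a 1.5-fold limit.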

Additional observations from a re-analysis of the deposited data

How the results depend on the processing

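Over 15 alternative fits and the 1.5-fold limit, all 8 genes kept the sign of their mean log2 ratio except *IMA1*, which ranged from −0.32 to 0.020 with 1 replicate left out and was above 0 without replicate 3. The number of genes at least 2-fold higher was 1 with median centring and with the dye swap left out, 3 with *MAL32* added in 6 other settings (the deposited log ratios of the arrays and of the series table, no background correction, normexp offset 0, the dye swap alone for replicate 3, and the dye term), and 4 at the 1.5-fold limit, which 2.45% of all probes passed. With 1 replicate left out it ranged from 1 to 3, and the number with an adjusted p below 0.05 by limma ranged from 0 to 5. The 5 were *MAL12*, *MAL31*, *MAL32*, *MAL33* and *SUC2* without replicate 3, when 4.67% of all probes were called as higher. Without replicate 3 the mutant was in Cy5 on every array, so strain and dye cannot be told apart. Without replicate 1 or without replicate 2, 0% of all probes were called as higher. With median centring 1 gene (*MAL33*) was called, when 0.064% of all probes were called as higher. Without replicate 3 the mean log2 ratio of *MAL11* was 0.47 and that of *MAL13* 0.21. Apart from leaving out a replicate, the mean log2 ratio ranged from 0.95 to 1.13 for *MAL12*, 0.91 to 1.11 for *MAL32* and 0.68 to 0.78 for *SUC2*, and it was at least 1.02 for *MAL33*. The difference of *MAL13* minus *MAL33* stayed between −1.03 and −0.92, and the differences of the other pairs kept their sign. With the channels treated as unpaired samples (no replicate block) the mean of *MAL33* stayed at 1.08, its adjusted p from limma was 0.549, and none of the 8 was called. In the fit of all 4 arrays with a dye term, the arrays of replicate 3 could not be set as a block, so its p-values are too small.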

Other observations

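The 2 arrays of replicate 3, which carry the same RNA with the dyes exchanged, differed by 0.45 on the log2 scale for *MAL12* (0.75 and 1.20), by 0.45 for *MAL32* and by 0.50 for *MAL31* (0.0021 and 0.50). These gaps were larger than those of 95.6%, 95.4% and 97.2% of all probes. For *MAL33* the gap was 0.0096 and for *MAL13* 0.0075, smaller than those of most probes. In each of the 3 genes with a large gap the mutant had the higher ratio when labeled with Cy3.

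In replicate 3 both strains had brighter probes for 5 of the 8 genes, *MAL12*, *MAL32*, *IMA1*, *MAL13* and *SUC2*. After scaling between arrays, the *MAL12* signal of replicate 3 was 2.20 times the mean of replicates 1 and 2 in the wild-type and 2.08 times in the mutant, and that of *MAL32* was 2.75 and 2.47 times. The values were 2.51 and 1.61 for *IMA1*, 1.78 and 1.47 for *MAL13* and 1.46 and 1.60 for *SUC2*. They were 1.38 and 0.962 for *MAL11*, 1.06 and 0.825 for *MAL31* and 0.975 and 0.873 for *MAL33*. For *MAL12* this difference between replicates was as large as that between the strains. Over all probes the median log2 shift of the wild-type in replicate 3 was −0.024. The wild-type shift exceeded that of 96% of all probes for *MAL12*, 98.4% for *MAL32*, 97.7% for *IMA1*, 90.6% for *MAL13* and 81.6% for *SUC2*. In the mutant these shares were 98.7%, 99.5%, 93.9%, 90.7% and 93.7%. For *MAL11*, *MAL31* and *MAL33* no share was above 78.5% in either strain.

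The isomaltase genes *IMA1* to *IMA5* had negative log2 ratios on both arrays of replicate 3, 5 of 5 on each, while 5 of 5 were positive in replicate 1 and 4 of 5 in replicate 2. Both arrays of replicate 3 carry the same RNA and so count as 1 replicate. Over all probes the medians were 0.0012, −0.0078 and 0.00097 in replicates 1 to 3, so either sign was common. In replicate 3 the log2 ratio was −0.62 for *IMA1*, −0.35 for *IMA2*, −0.30 for *IMA3*, −0.32 for *IMA4* and −0.32 for *IMA5*. These genes are close relatives, and whether their probes bind the transcripts of each other was not tested. This pattern was noticed after the values were seen and was given no test.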
